A study of Mus musculus with 4 samples.

Results

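Mitochondrial ribosomal protein genes are the nuclear genes for the protein part of the ribosome inside mitochondria. They were taken as every gene of the deposited mouse table whose symbol begins with Mrpl or Mrps followed by a digit and whose mean over the 4 libraries was at least 1 FPKM (fragments per kilobase of transcript per 1e6 mapped fragments). Of 18021 genes in the table, 77 had such a symbol. All 77 passed the level filter, which 11041 genes of the table passed. The member nearest to the limit was Mrpl17, at a mean of 3.68 FPKM, and no gene of the symbol rule lay below it. The rule used the symbol and the mean level, and no difference between groups.

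RNA was sequenced from dendritic cells of the C57BL/6 strain, antigen-presenting cells grown from bone marrow under GM-CSF and IL4, cytokines that drive myeloid growth, over 5 days. All cells were matured with lipopolysaccharide (LPS, a bacterial cell wall component) at 100 ng/ml for 24 h and then received an siRNA. The 4 groups, with 1 library each, were si-Lnc-Dpf3 with CCR7L, si-Lnc-Dpf3 in Med, si-NC with CCR7L and si-NC in Med. Here si-Lnc-Dpf3 is the siRNA named after lnc-Dpf3, a long non-coding RNA, si-NC is the siRNA it was set against, CCR7L is the chemokine pair CCL19 and CCL21 given for 12 h, and Med is no chemokine. Every group therefore carries LPS and a transfection, and no untransfected or unmatured cells were compared. The number of animals or cultures behind a library is not given in the sources used here. The RNA targeted by the siRNA was not analysed here, so its depletion was not checked.

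Mitochondria translate a small set of messages from their own genome, all of them for membrane proteins of oxidative phosphorylation. Their ribosome is built from RNA made in the mitochondrion and from proteins that are encoded in the nucleus, made in the cytosol and imported. Some of these proteins descend from families also found in bacterial ribosomes, and others occur in mitochondria alone. The particle has a small subunit, which holds the messenger RNA and reads the codons, and a large subunit, which forms the peptide bond. Dendritic cells matured with LPS are known to shift their energy supply towards glycolysis.

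By the known structure of the mammalian particle, 50 of the 77 genes encode large subunit proteins, 26 small subunit proteins and 1, Mrps36, neither. Mrps36 encodes an adaptor of the 2-oxoglutarate dehydrogenase complex of the citric acid cycle, although its symbol is ribosomal. Mrps30 and Mrps18a carry small subunit symbols and belong to the large subunit. Proteins of bacterial families numbered 48 and mitochondria-specific ones 28. The genes lie on 17 chromosomes, and all 77 matched a RefSeq gene of the same symbol.

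The libraries were alike in estimated depth. Read off the spacing of the lowest FPKM values, it was 19.6 to 19.9 in units of 1e6 reads a library. Summed FPKM is not a measure of depth, because FPKM is already per 1e6 mapped fragments. The sum was 500607 in si-Lnc-Dpf3 with CCR7L, 474610 in si-Lnc-Dpf3 in Med, 494419 in si-NC with CCR7L and 492522 in si-NC in Med. It was thus lowest in si-Lnc-Dpf3 in Med. All 8 dendritic cell markers listed for this work were measured, at a summed 3218 to 4701 FPKM in the 4 libraries. Transcripts of neutrophil genes were also abundant, at a summed 9272 to 13814 FPKM over 14 genes. In bulk RNA, fewer cells of a type and less RNA per cell cannot be told apart.

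Promoters of nuclear genes for mitochondrial proteins are known to hold sites for NRF1, for ETS factors such as GABP, and for YY1. The RefSeq table of promoter windows (GRCm38.p6, from 250 bases before to 50 bases after a gene's start) held 74 windows for 68 of the 77 genes. The motifs searched, on both strands, were the NRF1 core GCATGCGC, the ETS core CCGGAAG and the YY1 motif AAGATGGC. The NRF1 core was in 8 of the 74 windows (10.8%), against 5.37% of windows of all genes tested and 2.71% of all RefSeq windows. The ETS core was in 25 windows (33.8%), against 18.6% and 8.86%. YY1 letters were in 12 windows (16.2%), against 4.69% and 2.75%. At least 1 of the 3 was in 37 windows (50%), against 26.2% and 13.3%. A match is a description of letters and not a bound site, and these shares were not tested.

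**Figure D1:**
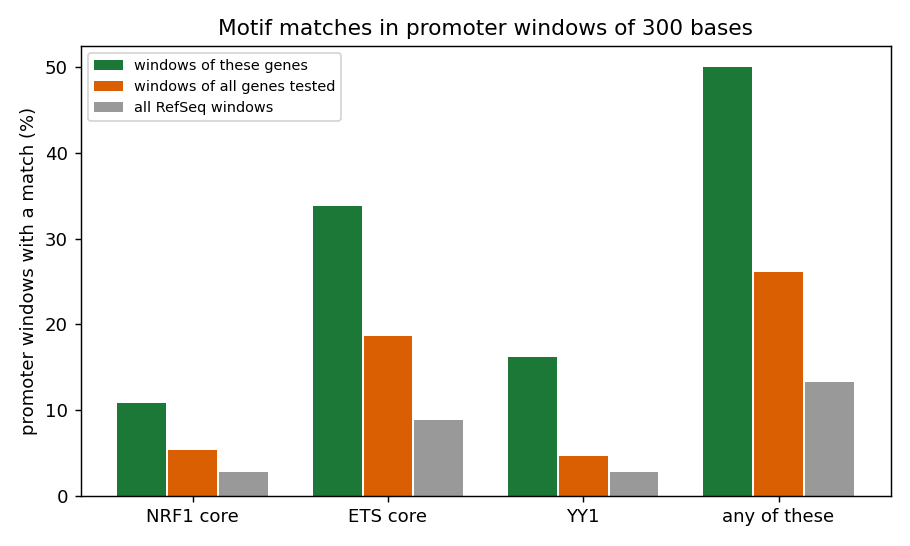
The share of 300-base promoter windows (vertical axis, percent) with a match to each motif is shown for windows of the mitochondrial ribosomal protein genes, of all genes tested and of the whole RefSeq table. The share in the ribosomal protein genes was 10.8% for NRF1, 33.8% for ETS and 16.2% for YY1, each above the share in all genes tested.

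The 5 stretches that follow show where the NRF1 and ETS cores stood against the start. They run from 90 bases before to 10 bases after the RefSeq start, read on the strand of the gene, with motif letters of either strand in capitals. Mrpl9 and Mrpl17 hold the NRF1 core, Mrpl33 and Mrpl22 hold it beside an ETS core, and Mrpl43 holds a pair of ETS cores.
Mrpl9 (chr3:94443246-94443345, plus strand): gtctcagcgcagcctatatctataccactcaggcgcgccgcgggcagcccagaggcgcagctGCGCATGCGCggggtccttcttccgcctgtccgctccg
Mrpl17 (chr7:105811078-105811177, minus strand): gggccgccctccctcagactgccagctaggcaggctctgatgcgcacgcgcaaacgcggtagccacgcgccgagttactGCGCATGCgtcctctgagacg
Mrpl33 (chr5:31613861-31613960, plus strand): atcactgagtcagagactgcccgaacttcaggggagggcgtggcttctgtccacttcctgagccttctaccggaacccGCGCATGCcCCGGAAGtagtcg
Mrpl22 (chr11:58171574-58171673, plus strand): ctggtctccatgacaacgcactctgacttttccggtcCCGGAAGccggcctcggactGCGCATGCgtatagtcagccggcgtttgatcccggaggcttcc
Mrpl43 (chr19:45006433-45006532, minus strand): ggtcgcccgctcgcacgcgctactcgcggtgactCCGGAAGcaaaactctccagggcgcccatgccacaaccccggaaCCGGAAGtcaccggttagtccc

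In Mrpl9 the capitals are a palindromic run in which a match on each strand overlaps the other, and 3 such pairs occurred among the 74 windows. No match of one motif overlapped a match of another. Position differed between the motifs. Of 14 NRF1 matches 13 lay before the start, and of 29 ETS matches 20 did, 15 of them within 60 bases. Of 12 YY1 matches 8 began after the start, between base 12 and base 37, and all 8 read AAGATGGC on the strand of the gene. The 4 YY1 matches before the start were all on the other strand.

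All 77 genes were expressed in every library, at mean levels that spanned 19.6-fold. The highest was Mrps21, a small subunit protein of a bacterial family, at 74.3 FPKM with CCR7L and 63.8 FPKM in Med under si-Lnc-Dpf3, and 74.1 FPKM with CCR7L and 75.6 FPKM in Med under si-NC. Mrpl52, a mitochondria-specific protein of the large subunit, stood at 67.02 FPKM with CCR7L and 59.2 FPKM in Med under si-Lnc-Dpf3, and at 65.5 FPKM with CCR7L and 69.8 FPKM in Med under si-NC. For both genes si-Lnc-Dpf3 in Med was the lowest library and the other 3 lay close together. Mrpl30 followed at 56.4 to 60.7 FPKM, Mrpl20 at 55.6 to 60.2 FPKM and Mrps18c at 51.1 to 58.9 FPKM, all of bacterial families.

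At the low end was Mrpl17, of the bacterial L17 family, with 3.73 FPKM with CCR7L and 3.71 FPKM in Med under si-Lnc-Dpf3, and 3.63 FPKM in both si-NC libraries. Its transcript was also the longest of the 77, at 7300 bases. Mrps25, a mitochondria-specific small subunit protein, measured 6.45 FPKM with CCR7L and 5.49 FPKM in Med under si-Lnc-Dpf3, and 7.34 FPKM with CCR7L and 6.70 FPKM in Med under si-NC. Both si-Lnc-Dpf3 libraries were below both si-NC libraries for Mrps25. Its gene overlaps Nr2c2, and whether the counting used strand is not given in the sources used here. Mrpl35, Mrpl19 and Mrps31 lay between 6.85 and 7.71 FPKM in every library.

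The median gene of the 77 had a mean of 26.2 FPKM, against 13.1 FPKM over all genes tested, and 64 of the 77 were above that all-gene median. Mean levels under 10 FPKM were found for 8 genes, from 10 to 40 FPKM for 54 and above 40 FPKM for 15. The 10 highest genes were the same in all 4 libraries, and so were the 10 lowest. Neighbours in that order mostly did not differ beyond their spread over the libraries: Mrpl12, Mrpl13 and Mrpl18, for example, had means of 51.5, 51.3 and 51.2 FPKM, and each varied over the libraries by more than those gaps.

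Levels were also stable gene by gene. The coefficient of variation over the 4 libraries had a median of 6.00% for the 77, with a range of 0.754% to 13.5%, against 7.71% over all genes tested. The highest library exceeded the lowest by less than 1.2-fold in 63 of the 77. The share of all genes tested below that limit is not given here, so this count has no background to set it against. Mrps16, a small subunit protein of a bacterial family, was the flattest, at 41.6 FPKM with CCR7L and 42.1 FPKM in Med under si-Lnc-Dpf3, and 41.7 FPKM with CCR7L and 41.4 FPKM in Med under si-NC. Mrps28 had the widest range, 1.38-fold. The members' estimated reads were 162 to 2397 per gene and library, with a median of 586. At the median, counting error alone gave a 95% half-width of 0.15 on the log2 scale for a ratio of 2 libraries. Such intervals cover counting error only.

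**Figure D2:**
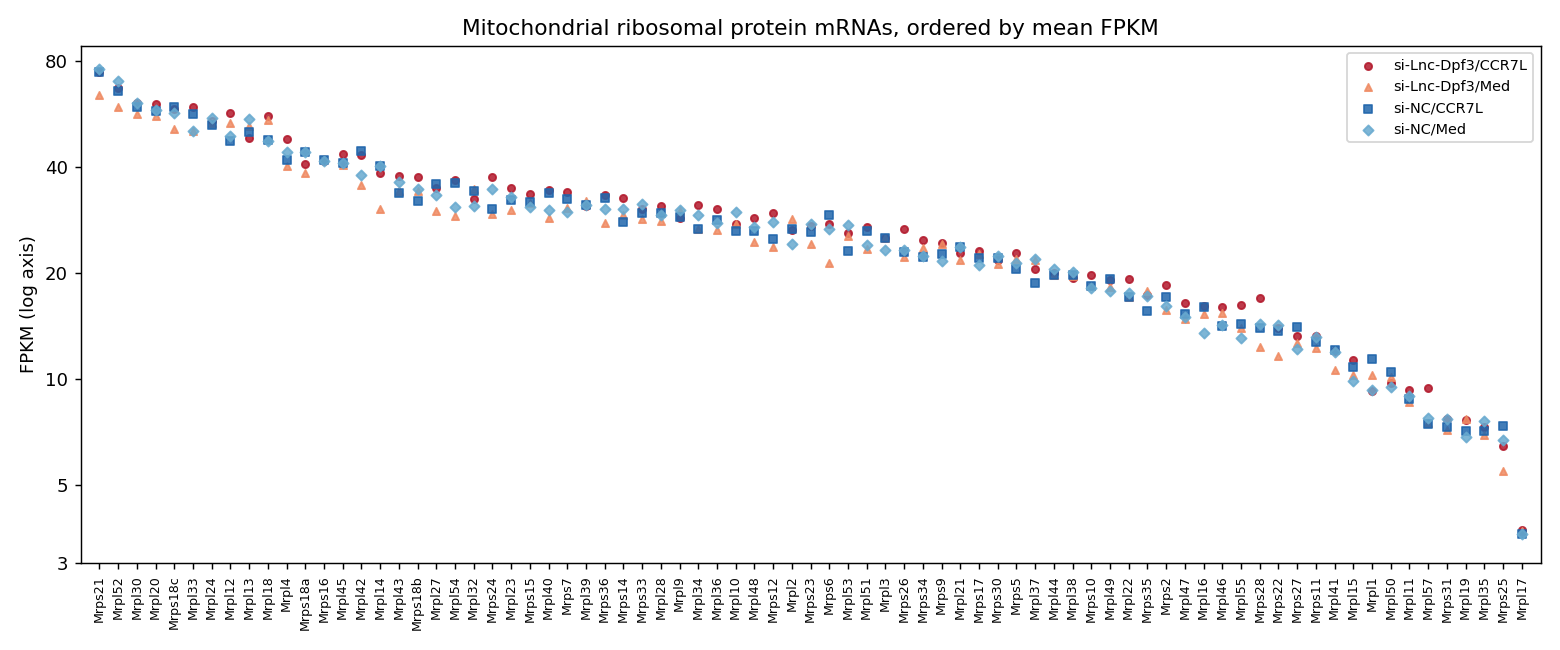
FPKM of each of the 77 genes (vertical log axis) is shown in the 4 libraries, with genes ordered along the horizontal axis by their mean. Symbols of 1 gene lie close together, from 63.8 to 75.6 FPKM for Mrps21 at the left to 3.63 to 3.73 FPKM for Mrpl17 at the right, and the triangles of si-Lnc-Dpf3 in Med are most often the lowest.

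Taken as a sum, the 77 genes had 2231 FPKM in si-Lnc-Dpf3 with CCR7L, 2040 FPKM in si-Lnc-Dpf3 in Med, 2130.0 FPKM in si-NC with CCR7L and 2129.7 FPKM in si-NC in Med. As a share of each library's summed FPKM these were 0.446%, 0.430%, 0.431% and 0.432% in the same libraries. Of the 77 genes, 41 were lowest in si-Lnc-Dpf3 in Med, where 23.9% of all genes tested were, and 43 were highest in si-Lnc-Dpf3 with CCR7L, where 22.3% were.

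The response to CCR7 ligands was first set out in si-Lnc-Dpf3 cells. With CCR7L, 64 of the 77 genes were higher than in Med and 13 were lower, where 44.3% of all genes tested were higher and 55.4% lower. The median log2 ratio of (FPKM + 1) was 0.11, against -0.024 over all genes tested. It was 0.035 with each library scaled to the same summed FPKM (-0.093 over all genes tested), and 0.036 with the trend on length and GC content removed (-0.0011). Differences were small. At least 1.2-fold higher were 8 of the 77 (6.51% of all genes tested) and at least 1.2-fold lower 0 (8.55%). The count of 8 was 3 with equal totals and 13 with median-ratio size factors. None of the 77 reached 2-fold here, where 0.19% of all genes tested were at least 2-fold higher and 0.29% lower. Higher past the 95% counting interval were 31 of the 77 (17.9% of the genes with a length) and lower 1 (25.2%). Each comparison has 1 library a side, so none of these counts has a replicate check or a p-value.

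The largest log2 ratio there was that of Mrps28, a small subunit protein of a bacterial family, with 17.0 FPKM with CCR7L and 12.3 FPKM in Med under si-Lnc-Dpf3, and 13.96 FPKM with CCR7L and 14.3 FPKM in Med under si-NC. The si-Lnc-Dpf3 libraries were thus the highest and the lowest of the 4, with a log2 ratio of 0.44 between them and a counting half-width of 0.25. Mrps6, of the bacterial S6 family, had 27.4 FPKM with CCR7L and 21.4 FPKM in Med under si-Lnc-Dpf3, and 29.1 FPKM with CCR7L and 26.7 FPKM in Med under si-NC. Its log2 ratio in si-Lnc-Dpf3 cells was 0.35, and its gene overlaps Slc5a3. Mrps24, of the bacterial S3 family of the small subunit, had 37.4 FPKM with CCR7L and 29.3 FPKM in Med under si-Lnc-Dpf3, and 30.3 FPKM with CCR7L and 34.6 FPKM in Med under si-NC. Its log2 ratio was 0.34 in si-Lnc-Dpf3 cells and -0.18 in si-NC cells.

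Mrpl14, a large subunit protein at the face towards the small subunit, had 38.4 FPKM with CCR7L and 30.4 FPKM in Med under si-Lnc-Dpf3, and 40.2 FPKM in both si-NC libraries. A single library, si-Lnc-Dpf3 in Med, therefore stood apart from 3 close values, with a log2 ratio of 0.33 to its CCR7L partner. Mrpl14 overlaps Tmem63b. Mrpl54, a mitochondria-specific large subunit protein, also had a log2 ratio of 0.33. The remaining genes past 1.2-fold were Mrps12 at 0.31, Mrpl57 at 0.30 and Mrpl42 at 0.28.

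The 5 lowest log2 ratios in si-Lnc-Dpf3 cells were -0.13 for Mrpl1, -0.11 for Mrpl13, -0.11 for Mrpl2, -0.091 for Mrpl32 and -0.074 for Mrpl37. Mrpl13 had 48.3 FPKM with CCR7L and 52.1 FPKM in Med under si-Lnc-Dpf3, and 50.02 FPKM with CCR7L and 54.6 FPKM in Med under si-NC. It encodes a large subunit protein of a bacterial family and was lower with CCR7L under both siRNAs. Mrpl32, whose protein is matured by a protease of the inner membrane, had 32.3 FPKM with CCR7L and 34.5 FPKM in Med under si-Lnc-Dpf3, and 34.1 FPKM with CCR7L and 31.0 FPKM in Med under si-NC.

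In si-NC cells CCR7L left the group balanced. Of the 77, 35 were higher with CCR7L than in Med and 41 were lower, where 46.1% of all genes tested were higher and 53.4% lower. The median log2 ratio was -0.0064, against -0.012 over all genes tested, and its sign turned under median-ratio scaling and with the length and GC trend removed. At least 1.2-fold higher was 1 gene, Mrpl1 (4.43% of all genes tested), and at least 1.2-fold lower were 0 (5.96%). With the length and GC trend removed, 0 were higher. At 2-fold there were 0 of the 77, against 0.19% higher and 0.263% lower among all genes tested. Past the counting interval 10 were higher (14.6%) and 7 lower (17.6%).

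Mrpl1, of the L1 stalk beside the exit for used transfer RNA, had 9.24 FPKM with CCR7L and 10.2 FPKM in Med under si-Lnc-Dpf3, and 11.4 FPKM with CCR7L and 9.30 FPKM in Med under si-NC. The highest value stood in si-NC with CCR7L, and the log2 ratio was 0.27 in si-NC cells and -0.13 in si-Lnc-Dpf3 cells. Mrpl16, a large subunit protein of a bacterial family, had 16.1 FPKM with CCR7L and 15.2 FPKM in Med under si-Lnc-Dpf3, and 16.01 FPKM with CCR7L and 13.5 FPKM in Med under si-NC. Its log2 ratio was 0.23 in si-NC cells, with si-NC in Med below the other 3 libraries. Mrpl42 at 0.22, Mrpl54 at 0.21 and Mrps27 at 0.19 completed the 5 highest. Mrps27, a mitochondria-specific protein, ranged over the libraries from 12.2 to 14.1 FPKM.

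The lowest log2 ratios in si-NC cells were -0.24 for Mrpl53, -0.21 for Mrpl37, -0.18 for Mrps24, -0.17 for Mrpl10 and -0.15 for Mrps12. Mrpl53, a mitochondria-specific large subunit protein, had 25.9 FPKM with CCR7L and 25.4 FPKM in Med under si-Lnc-Dpf3, and 23.0 FPKM with CCR7L and 27.4 FPKM in Med under si-NC. Mrpl37, also mitochondria-specific, had 20.6 FPKM with CCR7L and 21.7 FPKM in Med under si-Lnc-Dpf3, and 18.7 FPKM with CCR7L and 21.9 FPKM in Med under si-NC. Both genes were lowest in si-NC with CCR7L. Mrpl53 overlaps Ccdc142 and Mrpl37 overlaps Cyb5rl.

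The CCR7L comparisons of the 2 siRNAs share no library, so their values can be set side by side. In 34 of the 77 genes both had the same sign, 28 higher under both siRNAs and 6 lower under both. The share of all genes tested with the same sign is not given here. The log2 ratio was larger in si-Lnc-Dpf3 cells than in si-NC cells in 64 of the 77 genes, where 48.5% of all genes tested were so. The median of that difference was 0.11, against -0.0060 over all genes tested. Short genes in general had a like pattern. Over all 750 tested genes under 1000 bases, the median CCR7L log2 ratio was 0.14 in si-Lnc-Dpf3 cells and -0.012 in si-NC cells. With the trend on length and GC content removed, the medians of the 77 were 0.036 in si-Lnc-Dpf3 cells and 0.011 in si-NC cells. With 1 library a group this difference between siRNAs could not be tested.

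The siRNA comparison with CCR7L present showed slightly higher levels in si-Lnc-Dpf3 cells. Of the 77, 56 were higher in si-Lnc-Dpf3 than in si-NC and 21 were lower, where 52.4% of all genes tested were higher and 47.1% lower. The median log2 ratio was 0.060, against 0.0090 over all genes tested. At least 1.2-fold higher were 3 genes, Mrpl57, Mrps24 and Mrps28 (5.24% of all genes tested), and at least 1.2-fold lower 1, Mrpl1 (3.77%). With the length and GC trend removed, these counts were 1 and 0. At 2-fold there were 0, against 0.0362% in each direction among all genes tested. Past the counting interval 15 were higher (18.9%) and 2 lower (14.4%).

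Mrpl57, a mitochondria-specific large subunit protein, had 9.44 FPKM with CCR7L and 7.48 FPKM in Med under si-Lnc-Dpf3, and 7.46 FPKM with CCR7L and 7.75 FPKM in Med under si-NC. The value of si-Lnc-Dpf3 with CCR7L stood above 3 close ones, at a log2 ratio of 0.30 over si-NC with CCR7L, and the gene overlaps Ska3. Mrps24 had 0.30, Mrps28 0.27, Mrpl12 0.25 and Mrps12 0.24. The lowest were Mrpl1 at -0.28, Mrps25 at -0.16, Mrps18a at -0.11, Mrpl50 at -0.097 and Mrps6 at -0.084. Mrpl50, mitochondria-specific, lay between 9.49 and 10.5 FPKM in all libraries.

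In Med the siRNA comparison leaned the other way. Of the 77, 25 were higher in si-Lnc-Dpf3 than in si-NC and 52 were lower, where 54.3% of all genes tested were higher and 45.3% lower. The median log2 ratio was -0.050, against 0.020 over all genes tested, and it was slightly above 0 after scaling to equal totals or removing the length and GC trend. At least 1.2-fold lower were 3 genes, Mrpl14, Mrps6 and Mrps22 (7.06% of all genes tested), and 0 were at least 1.2-fold higher (8.57%). The lower count was 1 with equal totals or with the trend removed, each with 1 higher, and 7 with median-ratio size factors. At 2-fold there were 0, against 0.0362% higher and 0.0543% lower among all genes tested. Past the counting interval 7 were higher (26.2%) and 12 lower (18%).

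Mrpl14 had the lowest log2 ratio in Med, -0.39, followed by Mrps6 at -0.31, Mrps22 at -0.27, Mrps25 at -0.25 and Mrps21 at -0.24. Mrps22, a mitochondria-specific small subunit protein, had 13.96 FPKM with CCR7L and 11.6 FPKM in Med under si-Lnc-Dpf3, and 13.6 FPKM with CCR7L and 14.2 FPKM in Med under si-NC. Its si-Lnc-Dpf3 Med library lay below the other 3. The highest were Mrpl2 at 0.23, Mrpl18 at 0.19, Mrpl16 at 0.17, Mrps9 at 0.16 and Mrpl19 at 0.15.

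Mrpl2, a large subunit protein close to the site of peptide bond formation, had 26.4 FPKM with CCR7L and 28.5 FPKM in Med under si-Lnc-Dpf3, and 26.6 FPKM with CCR7L and 24.2 FPKM in Med under si-NC. Its 2 CCR7L libraries were alike and its Med libraries lay on either side of them. Mrps9, of the bacterial S9 family, had 24.3 FPKM with CCR7L and 24.2 FPKM in Med under si-Lnc-Dpf3, and 22.7 FPKM with CCR7L and 21.6 FPKM in Med under si-NC. Both si-Lnc-Dpf3 libraries were above both si-NC libraries for Mrps9. The siRNA comparisons with CCR7L and in Med share no library, and 30 of the 77 genes had the same sign in both, 17 higher and 13 lower. In 39 genes si-Lnc-Dpf3 was higher with CCR7L and lower in Med. For these sign counts the shares over all genes tested are not given here.

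**Figure D3:**
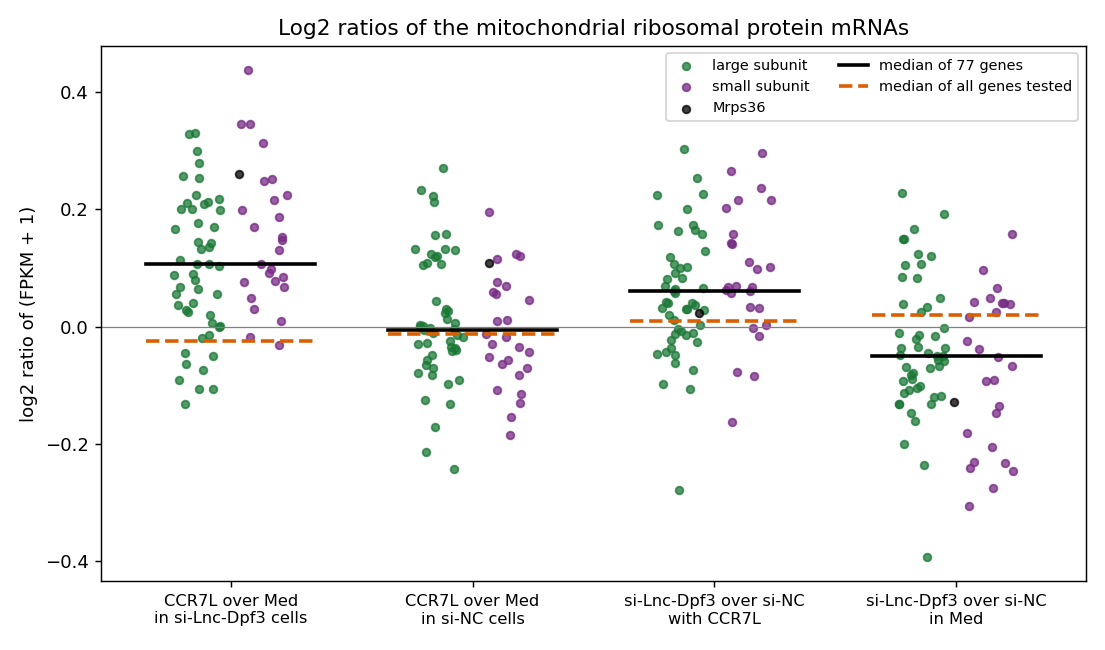
Each point is the log2 ratio of (FPKM + 1) of 1 gene (vertical axis) in 1 of the 4 comparisons (horizontal axis), coloured by subunit, with the median of the 77 as a solid line and of all genes tested as a dashed line. The solid line stands at 0.11, -0.0064, 0.060 and -0.050 from left to right, and all points lie within 2-fold.

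The subunits were set side by side. For CCR7L over Med in si-Lnc-Dpf3 cells the median log2 ratio was 0.097 over the 50 large subunit genes, of which 39 were higher, and 0.14 over the 26 small subunit genes, of which 24 were higher. Higher past the counting interval there were 17 of 50 large and 13 of 26 small subunit genes (17.9% of genes with a length). In si-NC cells the medians were -0.0035 for the large and -0.023 for the small subunit. The siRNA comparison gave 0.040 for the large and 0.068 for the small subunit with CCR7L, and -0.049 for the large and -0.059 for the small subunit in Med. By origin, the 48 genes of bacterial families and the 28 mitochondria-specific genes had medians of 0.11 and 0.099 for CCR7L in si-Lnc-Dpf3 cells. The differences between these classes were not tested.

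Transcript length moved with the ratios that use the library of si-Lnc-Dpf3 in Med. Transcripts of the 77 genes were short, with a median of 1226 bases against 2821 bases over all genes tested. Over the 77 genes, Spearman's rho of length with the log2 ratio was -0.43 for CCR7L in si-Lnc-Dpf3 cells and 0.43 for si-Lnc-Dpf3 over si-NC in Med, which share that library. It was 0.026 for CCR7L in si-NC cells. With CCR7L it was -0.0075 for si-Lnc-Dpf3 over si-NC, and neither of these contains that library. These are descriptions across genes, which are not independent replicates.

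Among genes under 1 kb (1000 bases), all 26 of the 77 were higher with CCR7L in si-Lnc-Dpf3 cells. So were 605 of all 750 tested genes of that length. The median log2 ratio was 0.20 for the 26 and 0.14 for the 750. From 1 to 2 kb the medians were 0.066 for 28 ribosomal genes and 0.060 for all genes, and at 2 kb or longer 0.068 for 23 ribosomal genes and -0.060 for all genes. In Med, si-Lnc-Dpf3 over si-NC gave -0.13 for ribosomal genes under 1 kb and -0.12 for all genes of that length, -0.031 and -0.048 from 1 to 2 kb, and -0.016 and 0.050 at 2 kb or longer. With the trend on length and GC content over all genes removed, the median of the 77 for CCR7L in si-Lnc-Dpf3 cells was 0.036, as given above.

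**Figure D4:**
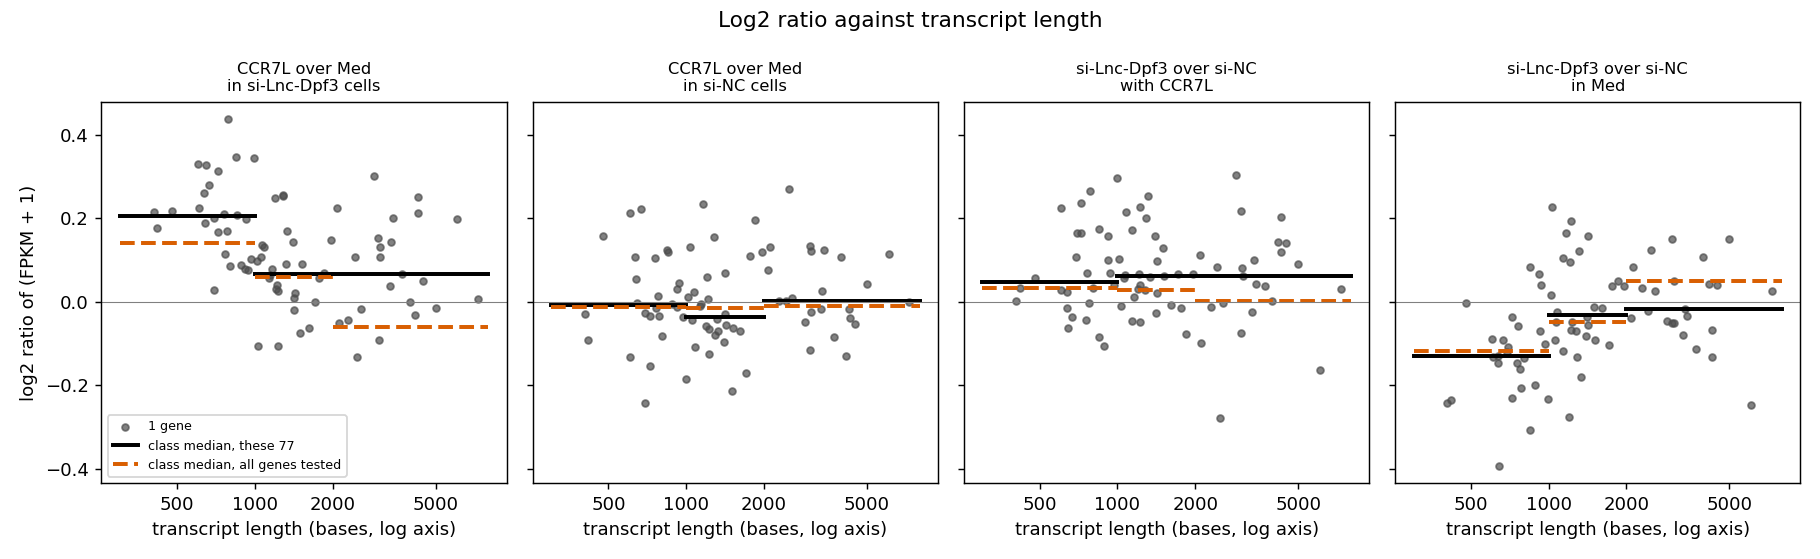
The log2 ratio of (FPKM + 1) of each of the 77 genes (vertical axis) is plotted against transcript length in bases (horizontal log axis) for the 4 comparisons, with medians by length class for the 77 (solid) and for all genes tested (dashed). In si-Lnc-Dpf3 cells the class medians of the 77 for CCR7L are 0.20, 0.066 and 0.068 from short to long, while in si-NC cells they stay near 0.

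The only test the design allows is limma's moderated test of each factor averaged over the other, in a model of siRNA plus stimulation with 1 residual degree of freedom and Benjamini-Hochberg adjustment over 11041 genes. Its p-values set an effect against the interaction and the spread borrowed across genes, and not against replicate cultures. For CCR7L over Med, 2 of the 77 genes passed as higher (2.93% of all genes tested) and 0 as lower (3.11%). The count of 2 is near the share over all genes tested. At an unadjusted p under 0.05, 8 were higher (7.64% of all genes tested) and 0 lower (8.41%) by limma. Under the alternatives the number that passed as higher ran between 0 and 5.

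The 2 genes that passed as higher were Mrpl54 and Mrpl42, both mitochondria-specific proteins of the large subunit. Mrpl54 (chromosome 10, 81264722 to 81266926) had 36.6 FPKM with CCR7L and 28.9 FPKM in Med under si-Lnc-Dpf3, and 35.8 FPKM with CCR7L and 30.8 FPKM in Med under si-NC. Both CCR7L libraries lay above both Med libraries, and the average log2 change was 0.27 ± 0.07 (SE, limma adjusted p = 0.036). Mrpl42 (chromosome 10, 95480805 to 95501949) had 43.3 FPKM with CCR7L and 35.5 FPKM in Med under si-Lnc-Dpf3, and 44.4 FPKM with CCR7L and 37.9 FPKM in Med under si-NC. Its libraries also separated by stimulation, with an average log2 change of 0.25 ± 0.06 (SE, limma adjusted p = 0.041). Their transcripts are 604 and 666 bases long. Both calls were lost with no filter on low values, with no mean-variance trend, and with stimulation as the only factor, whether all libraries or any 3 of them were used, and that of Mrpl42 also with equal totals (limma adjusted p = 0.062). Over all alternatives the limma adjusted p was 0.0037 to 0.92 for Mrpl54 and 0.0064 to 0.93 for Mrpl42, and the log2 change was above 0 in each.

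For si-Lnc-Dpf3 over si-NC, averaged over both stimulations, 0 of the 77 passed as higher (2.33% of all genes tested) and 0 as lower (2.04%). At an unadjusted p under 0.05, 2 were higher (9.85% of all genes tested) and 4 lower (7.6%) by limma. Other scalings gave calls: Mrpl18 passed as higher with equal totals, Mrpl12 and Mrpl18 passed as higher and Mrpl14 as lower once the trend on length and GC was taken out, and Mrpl14 passed as lower with median-ratio size factors. With the values as deposited Mrpl18 came nearest. It encodes a large subunit protein of a bacterial family and had 55.8 FPKM with CCR7L and 54.2 FPKM in Med under si-Lnc-Dpf3, and 47.5 FPKM with CCR7L and 47.3 FPKM in Med under si-NC. The siRNAs did not overlap, and the average log2 difference was 0.21 ± 0.06 (SE, limma adjusted p = 0.091). Mrpl18 overlaps Tcp1. Mrpl12 had a difference of 0.19 ± 0.06 (limma adjusted p = 0.15), Mrpl14 -0.23 ± 0.08 (limma adjusted p = 0.16) and Mrps6 -0.20 ± 0.07 (limma adjusted p = 0.19).

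**Figure D5:**
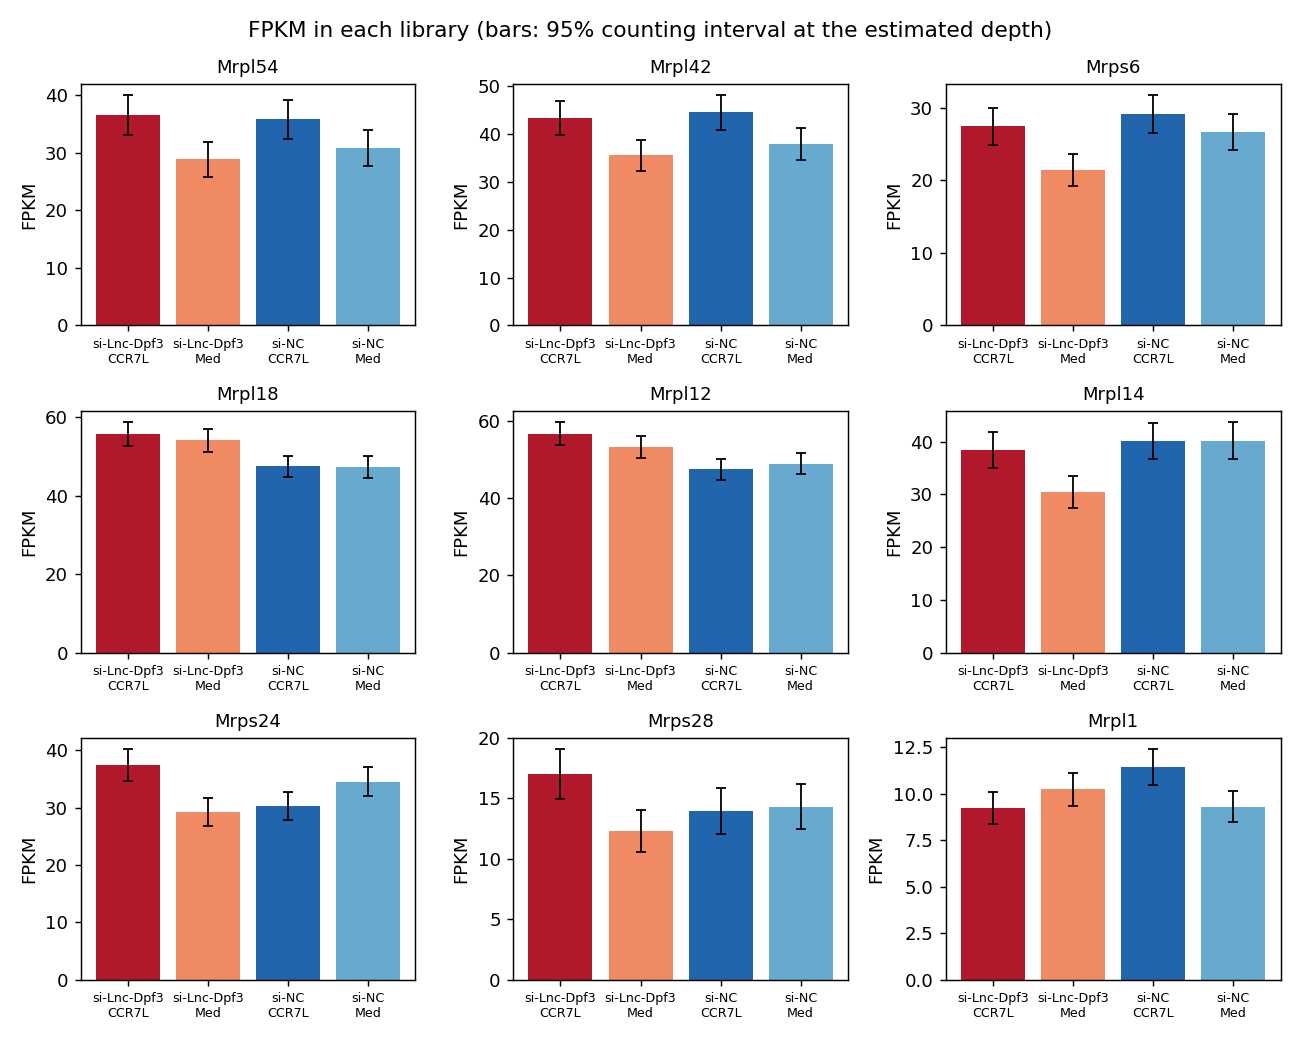
FPKM (vertical axes, from 0) in the 4 libraries (horizontal axis) is shown for 9 genes, with bars for the 95% counting interval at the estimated depth, which does not cover differences between cultures. Mrpl54 and Mrpl42 are higher in both CCR7L libraries, Mrpl18 and Mrpl12 in both si-Lnc-Dpf3 libraries, and Mrpl14 is low in si-Lnc-Dpf3 in Med alone, at 30.4 FPKM.

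The stalk that recruits translation factors to the large subunit is formed by Mrpl12 on a base with Mrpl10 and Mrpl11. Mrpl12, which has also been reported to bind the mitochondrial RNA polymerase, had 56.6 FPKM with CCR7L and 53.2 FPKM in Med under si-Lnc-Dpf3, and 47.4 FPKM with CCR7L and 48.8 FPKM in Med under si-NC. Mrpl10 had 27.6 FPKM in both si-Lnc-Dpf3 libraries, and 26.3 FPKM with CCR7L and 29.7 FPKM in Med under si-NC. Mrpl11 had 9.32 FPKM with CCR7L and 8.58 FPKM in Med under si-Lnc-Dpf3, and 8.75 FPKM with CCR7L and 8.92 FPKM in Med under si-NC. FPKM is a level per transcript length, and on that scale Mrpl12 stood above Mrpl10 and Mrpl11 in every library.

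Mrps12, a protein of the decoding centre of the small subunit, had 29.6 FPKM with CCR7L and 23.6 FPKM in Med under si-Lnc-Dpf3, and 24.9 FPKM with CCR7L and 27.9 FPKM in Med under si-NC. Its log2 ratio for CCR7L was 0.31 in si-Lnc-Dpf3 cells and -0.15 in si-NC cells. Mrpl36, among the smallest proteins of the large subunit in bacteria, had 30.4 FPKM with CCR7L and 26.4 FPKM in Med under si-Lnc-Dpf3, and 28.3 FPKM with CCR7L and 27.7 FPKM in Med under si-NC. Mrps36, the dehydrogenase adaptor, had 33.2 FPKM with CCR7L and 27.6 FPKM in Med under si-Lnc-Dpf3, and 32.7 FPKM with CCR7L and 30.3 FPKM in Med under si-NC. It was higher with CCR7L under both siRNAs, with log2 ratios of 0.26 and 0.11, as were 28 of the 77 genes. RefSeq names 3 pseudogenes of Mrps36 in the mouse, so its value is uncertain. Mrpl27, Mrpl23 and Mrpl48 have 1 named pseudogene each and are uncertain likewise.

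Mrps18a, Mrps18b and Mrps18c are paralogs of the bacterial S18 family, and a mammalian mitoribosome carries all of them at different places. Mrps18c had 58.3 FPKM with CCR7L and 51.1 FPKM in Med under si-Lnc-Dpf3, and 58.9 FPKM with CCR7L and 56.7 FPKM in Med under si-NC. Mrps18b had 37.3 FPKM with CCR7L and 34.0 FPKM in Med under si-Lnc-Dpf3, and 32.0 FPKM with CCR7L and 34.6 FPKM in Med under si-NC. Mrps18a had 40.7 FPKM with CCR7L and 38.3 FPKM in Med under si-Lnc-Dpf3, and 43.9 FPKM with CCR7L and 44.1 FPKM in Med under si-NC. The level order Mrps18c, Mrps18a, Mrps18b held in all 4 libraries, and Mrps18a was lower in both si-Lnc-Dpf3 libraries than in both si-NC libraries. Mrps18a overlaps Rsph9. Mrps30, a mitochondria-specific protein of the large subunit, was flat at 21.1 to 22.4 FPKM.

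Genes with the ETS core in a promoter window had a median log2 ratio of 0.17 for CCR7L in si-Lnc-Dpf3 cells. Of these, 24 of 25 were higher, where 44.3% of all genes tested were. Genes with the NRF1 core had 0.0026, with 4 of 8 higher, and those with YY1 letters 0.097, with 10 of 12 higher. The 31 genes that had a window without any of the 3 motifs had 0.10, with 28 higher. In Med, si-Lnc-Dpf3 over si-NC had medians of -0.11 for ETS, -0.0083 for NRF1, -0.080 for YY1 and -0.049 with no motif. Among the genes printed above, Mrpl33 had 58.9 FPKM with CCR7L and 50.5 FPKM in Med under si-Lnc-Dpf3, and 56.6 FPKM with CCR7L and 50.6 FPKM in Med under si-NC. Mrpl9 had 28.6 FPKM with CCR7L and 29.9 FPKM in Med under si-Lnc-Dpf3, and 28.8 FPKM with CCR7L and 30.2 FPKM in Med under si-NC. Mrpl33 was thus higher and Mrpl9 lower with CCR7L under both siRNAs, although both hold the NRF1 core. These class differences were not tested, and the classes share genes. The classes were also not matched for transcript length, with which the ratios that use si-Lnc-Dpf3 in Med moved. The 44.3% covers tested genes of all lengths, while 605 of the 750 under 1 kb were higher in that comparison.

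The rest of the mitochondrial translation machinery was measured through 5 lists with 75 tested genes, covering ribosomal proteins under other symbols, translation factors, ribosome assembly with rRNA modification, aminoacyl-tRNA synthesis, and transcription and replication of mitochondrial DNA. For CCR7L, averaged over both siRNAs, 0 of the 75 passed limma as higher (2.93% of all genes tested) and 1 as lower (3.11%). At an unadjusted p under 0.05, 2 were higher (7.64%) and 2 lower (8.41%) by limma. With the siRNA, 0 passed as higher (2.33% of all genes tested) and 0 as lower (2.04%). At an unadjusted p under 0.05, 3 were higher (9.85%) and 3 lower (7.6%) by limma. The 7 ribosomal proteins under other symbols had a median log2 ratio of 0.12 for CCR7L in si-Lnc-Dpf3 cells. Of these, the small subunit protein Dap3 had 32.0 FPKM with CCR7L and 31.5 FPKM in Med under si-Lnc-Dpf3, and 31.3 FPKM with CCR7L and 28.7 FPKM in Med under si-NC. The 14 translation factors had a median of 0.050, the 25 assembly genes 0.0054, the 20 aminoacyl-tRNA genes -0.065 and the 9 genes for mitochondrial DNA -0.086 in that comparison.

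The gene that fell with CCR7L was Ears2, the mitochondrial glutamyl-tRNA synthetase. It had 3.64 FPKM with CCR7L and 7.40 FPKM in Med under si-Lnc-Dpf3, and 3.97 FPKM with CCR7L and 8.31 FPKM in Med under si-NC, an average log2 change of -0.88 ± 0.09 (SE, limma adjusted p = 0.00018). That difference is larger than any among the 77 ribosomal genes, whose log2 ratios lay between -0.39 and 0.44 in all 4 comparisons. Tufm, the elongation factor that brings aminoacyl-tRNA to the ribosome, had 45.7 FPKM with CCR7L and 41.5 FPKM in Med under si-Lnc-Dpf3, and 41.0 FPKM with CCR7L and 42.3 FPKM in Med under si-NC. Tfam, which packages and transcribes mitochondrial DNA, was flat at 11.4 to 11.7 FPKM.

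Of 9 tested regulators of nuclear genes for mitochondria, 1 passed limma for si-Lnc-Dpf3 over si-NC, as higher, and 0 as lower. Over all genes tested these shares were 2.33% and 2.04%. For CCR7L 0 of the 9 passed, and 0 had an unadjusted p under 0.05 by limma. The gene that passed was Myc, a transcription factor that promotes growth and ribosome production, with 37.0 FPKM with CCR7L and 39.6 FPKM in Med under si-Lnc-Dpf3, and 29.0 FPKM with CCR7L and 28.5 FPKM in Med under si-NC. Its average log2 difference was 0.40 ± 0.07 (SE, limma adjusted p = 0.011). Nrf1 had 12.1 FPKM with CCR7L and 13.0 FPKM in Med under si-Lnc-Dpf3, and 11.4 FPKM with CCR7L and 12.1 FPKM in Med under si-NC. Gabpa, the DNA-binding part of GABP, had 11.1 FPKM with CCR7L and 13.2 FPKM in Med under si-Lnc-Dpf3, and 10.9 FPKM with CCR7L and 10.8 FPKM in Med under si-NC.

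Some markers of other cells and of division differed with the siRNA. Of 13 tested neutrophil markers, 6 were higher in si-Lnc-Dpf3 and 0 lower by limma. Over all genes tested, limma called 2.33% higher and 2.04% lower with the siRNA. The list's summed level was 13684 to 13814 FPKM in the 2 si-Lnc-Dpf3 libraries and 9272 to 9653 FPKM in the 2 si-NC libraries. None of the 14 was at 0. Most of that sum came from 2 genes that did not pass (limma adjusted p = 0.054 and 0.099). The list was not uniform: of the 13, 12 were higher in si-Lnc-Dpf3 with CCR7L and 10 in Med. Of 30 cell cycle genes, 20 were higher and 0 lower by limma, with summed levels of 983 to 1049 FPKM in si-Lnc-Dpf3 and 812 to 813 FPKM in si-NC. Macrophage markers summed to 301 to 308 FPKM in si-Lnc-Dpf3 and 354 to 372 FPKM in si-NC, with 0 higher and 2 lower of 5 tested. Mast cell and basophil markers summed to 328 to 334 FPKM in si-Lnc-Dpf3 and 353 to 369 FPKM in si-NC, with 0 higher and 1 lower of 6. Dendritic cell markers had 0 higher and 2 lower of 8 with the siRNA. With CCR7L 3 were higher and 2 lower (2.93% and 3.11% of all genes tested). The part of these markers in the values of the ribosomal protein genes was not tested.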

How the data were processed

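Total RNA of 4 libraries was extracted with TRIzol, and libraries were made and sequenced at Beijing Genomics Institute with a BGISEQ-500, as the labels' protocols state. The authors deposited 1 table of FPKM values per gene and library. Bowtie2, RSEM and GRCm38 are named in the submitters' processing notes. Versions and strandedness: not given in the sources used here. A column's group was read from the abbreviated siRNA and stimulation in its name.

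FPKM values were analysed as log2(FPKM + 1) over 11041 genes whose mean reached 1 FPKM. A pseudocount of 1 understates the change of low genes. The spacing of low values gave an estimate of depth, at which 57.3% to 67.5% of them fell no more than 0.1 from a whole read. Chance gives 20% at a depth fixed beforehand. The depth was chosen as the best match to whole reads in these same values, so 20% understates the chance share. Whole reads were thus not recovered and no count test was made. Counting intervals are Poisson intervals at the estimated depth (95%). They take reads as FPKM times full transcript length times depth. A shorter effective length was not allowed for, so intervals of short transcripts may be too narrow. The average effects were tested with limma 3.58.1 in R 4.3.3, with an additive model of both factors and a mean-variance trend. The threshold was a Benjamini-Hochberg adjusted p of 0.05. That step was checked on simulated data. The branch for FPKM of the design was followed.

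Of 18021 gene identifiers 17892 matched RefSeq (GRCm38.p6), the source of coordinates, overlaps and promoter windows. Length and GC content are medians over the GENCODE vM21 transcripts linked to a gene, and were found for 98.4% of the genes tested. Subunits and gene lists were written from general knowledge. Members and lists were chosen with earlier results of these data known. Genes named with values in all libraries were the 5 highest and 5 lowest in mean level, the 5 highest and 5 lowest log2 ratios of each comparison among those with a mean of at least 5 FPKM, those past limma, and a set list of structural landmarks. Of other lists, genes past limma and 6 landmark genes were eligible. Alternatives were equal totals, median-ratio size factors, a pseudocount of 0.1, no filter, no mean-variance trend, 1 factor alone, removal of the trend on length and GC (splines with 4 degrees of freedom each) and leaving out each library. Python 3.11.15 was used for the remaining steps.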

Additional observations from a re-analysis of the deposited data

Results flagged for a closer look

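Several values had opposite signs in 2 comparisons that share no library. With 1 library a group the difference between 2 such comparisons was not tested. The pair of CCR7L comparisons and the pair of siRNA comparisons use the same 4 libraries. For any 1 gene, the difference of log2 ratios within each pair is the same value. A gene or median flagged in both pairs is therefore not flagged by independent results. The median log2 ratio of the 77 genes for CCR7L over Med was 0.11 in si-Lnc-Dpf3 cells and -0.0064 in si-NC cells. For si-Lnc-Dpf3 over si-NC it was 0.060 with CCR7L and -0.050 in Med. The signs of these medians were no longer opposite once the trend on length and GC content was removed. The CCR7L medians were then 0.036 in si-Lnc-Dpf3 cells and 0.011 in si-NC cells. Those for si-Lnc-Dpf3 over si-NC were 0.043 with CCR7L and 0.0052 in Med.

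For CCR7L over Med, Mrps24 had log2 ratios of 0.34 in si-Lnc-Dpf3 cells and -0.18 in si-NC cells. Mrps14, a small subunit protein of a bacterial family, had 0.15 in si-Lnc-Dpf3 cells and -0.12 in si-NC cells. Mrpl32 had -0.091 in si-Lnc-Dpf3 cells and 0.13 in si-NC cells. The genes listed here, and those for the siRNA below, had opposite signs with both ratios past the counting interval at the estimated depth. They were listed on that basis, so passing the interval is not a further result. Genes with opposite signs and a ratio inside the interval were not listed. An example is Mrpl1, with -0.13 in si-Lnc-Dpf3 cells (half-width 0.17) and 0.27 in si-NC cells.

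For si-Lnc-Dpf3 over si-NC, Mrps24 had 0.30 with CCR7L and -0.23 in Med, and Mrps12 had 0.24 with CCR7L and -0.23 in Med. Mrpl4, a large subunit protein of a bacterial family, had 0.20 with CCR7L and -0.13 in Med. Mrpl48, mitochondria-specific, had 0.12 with CCR7L and -0.13 in Med, and its value is uncertain because of a named pseudogene and its overlap with Rab6a.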

How the results depend on the processing

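Of 84 counts of genes under an alternative, 59 stayed within 1.5 times the count reported and 25 did not. Of 20 medians, 16 kept their sign and 4 did not. Of 22 values of Mrpl54 and Mrpl42, 7 stayed past the threshold and 15 did not, with no change of sign. The median log2 ratio for CCR7L in si-Lnc-Dpf3 cells kept its sign under every alternative run (0.035 to 0.13), and that for si-Lnc-Dpf3 over si-NC with CCR7L did as well (0.042 to 0.062). The median for CCR7L in si-NC cells was 0.0085 with median-ratio size factors and 0.011 with the length and GC trend removed. The median for si-Lnc-Dpf3 over si-NC in Med was 0.00055 with equal totals and 0.0052 with the trend removed. Genes at least 1.2-fold higher with CCR7L in si-Lnc-Dpf3 cells numbered 3 with equal totals and 13 with median-ratio factors. In si-NC cells they numbered 0 with the trend removed. With CCR7L, trend removal left for si-Lnc-Dpf3 over si-NC 1 higher and 0 lower. In Med, 1 was higher and 1 lower both with equal totals and with the trend removed, and 7 were lower with median-ratio factors. Genes past limma as higher with CCR7L numbered 1 with equal totals (Mrpl54), 5 with median-ratio factors (Mrpl33, Mrpl40, Mrpl42, Mrpl54 and Mrps6) and 5 with the trend removed (Mrpl40, Mrpl42, Mrpl51, Mrpl54 and Mrps6), where 2 were lower (Mrpl13 and Mrpl53). They numbered 0 with no filter, no mean-variance trend or stimulation alone. The fits without 1 library had to drop the siRNA factor too and also gave 0, so the part of a single library cannot be told apart from that of the dropped factor. In those fits a level with 1 library is assumed to vary like the other. With the siRNA, Mrpl18 alone passed as higher with equal totals, a count of 1, and 2 (Mrpl12 and Mrpl18) with the trend removed. Mrpl14 passed as lower with median-ratio factors and with the trend removed, a count of 1 each. The cause was not tested. No paired analysis was possible because the labels carry no replicate numbers and each group has 1 library.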
